A study of Mus musculus with 6 samples.

Results

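A set of 9 adipocyte genes was followed in RNA from pieces of whole mouse intestine labelled as terminal ileum. They were Adipoq, Retn, Cfd, Plin1, Plin4, Cidec, Fabp4, Lpl and Car3, which are 9 of the 23402 genes in the table. They were chosen as genes through which fat attached to the bowel could show in each library, and Fabp4 was also selected on its FPKM values, which had been seen lower in the KO libraries. The 6 mice were 6 weeks old and all had received dextran sodium sulfate (DSS), a polysaccharide that injures the gut lining, in the drinking water until day 6. All carried floxed alleles of Il17ra, a subunit of the interleukin-17 receptor. The 3 KO mice (Il17rafl/fl;Atoh1-cre+) also carried Cre driven by Atoh1, a gene of the secretory lineage of the gut epithelium, and the 3 WT mice (Il17rafl/fl;Atoh1-cre-) were their littermates without Cre. WT therefore means floxed without Cre, and no mice without DSS were analysed here. Values are FPKM, fragments scaled to transcript length and sequencing depth, so levels can be compared between genes.

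White adipocytes store triglyceride in a single large lipid droplet and secrete hormones, the adipokines. Lipoprotein lipase on nearby capillaries releases fatty acids from blood lipoproteins, fatty acid binding proteins carry them inside the cell, and perilipins and CIDE proteins coat the droplet and control its growth and breakdown. The mesentery, the fold that holds the small intestine, carries white fat against the bowel wall. Enterocytes also make and export lipid, and several genes of lipid storage are active in both cell types.

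Each library had 16317 to 16547 genes with a value above 0. The value of a single fragment, read from low genes, put the depth at roughly 8100000 to 9440000 fragments. Il17ra itself stood at 6.04, 5.91 and 6.53 FPKM in WT and at 7.93, 8.36 and 6.07 FPKM in KO, so its level does not check the labels in whole tissue. The Y-linked gene Ddx3y was at 14.5 to 15.3 FPKM in WT 1, WT 2 and KO 1 and at 0.0478 FPKM or less in WT 3, KO 2 and KO 3, so each group held both sexes in unequal numbers. Defining genes of the distal ileum were low in 5 libraries and higher in WT 3. Fabp6, the ileal bile acid binding protein, stood at 0.316 to 2.41 FPKM in the 5 and at 9.79 FPKM in WT 3. Slc10a2, the ileal bile acid transporter, stood at 0.0669 to 0.824 and 1.94 FPKM, and the bile acid induced hormone gene Fgf15 at 0.139 to 0.973 and 7.70 FPKM. Gata4, a transcription factor of the proximal small intestine, stood at 37.1 to 49.3 FPKM and the lactase gene Lct at 188 to 419 FPKM. Fgf15, Gata4 and Lct were picked after their values were seen. These values go against the label terminal ileum, and it is kept here only as a label. By the distal genes WT 3 departed least from it, but not by the proximal genes. The mean log2(FPKM + 1) of Gata4 and Lct, centred per gene on the 6 libraries, was highest in WT 3 (0.20) and KO 1 (0.19).

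Promoter sequence in RefSeq (GRCm38.p6) was matched for 6 of the 9 genes, with Cidec matched at 2 start sites. The 250 bases before the start were searched on both strands for the direct repeat bound by PPAR-RXR (AGGTCA, any 1 base, AGGTCA), for its single unit AGGTCA, for TTGCNNAA, a core bound by C/EBP factors, and for TATAAA, the TATA box. PPARG and C/EBP factors are the master regulators of fat cell formation, which is why these motifs were chosen. The 4 promoters below are shown because they include every match found (Plin1 and Cidec) and the adipokines Adipoq and Cfd for comparison. Capitals mark TTGCNNAA on either strand.
Plin1, chr7:79732777-79733026, minus strand: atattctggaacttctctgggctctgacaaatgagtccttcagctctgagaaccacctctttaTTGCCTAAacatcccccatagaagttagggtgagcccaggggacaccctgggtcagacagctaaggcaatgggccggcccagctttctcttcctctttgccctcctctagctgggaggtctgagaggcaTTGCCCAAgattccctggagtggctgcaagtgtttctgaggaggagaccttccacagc
Cidec, chr6:113434765-113435014, minus strand: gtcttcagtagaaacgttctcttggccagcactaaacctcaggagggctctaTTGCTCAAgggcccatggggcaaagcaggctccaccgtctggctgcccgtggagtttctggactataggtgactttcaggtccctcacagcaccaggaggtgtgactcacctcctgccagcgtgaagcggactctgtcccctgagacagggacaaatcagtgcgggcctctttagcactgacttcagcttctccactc
Adipoq, chr16:23146286-23146535, plus strand: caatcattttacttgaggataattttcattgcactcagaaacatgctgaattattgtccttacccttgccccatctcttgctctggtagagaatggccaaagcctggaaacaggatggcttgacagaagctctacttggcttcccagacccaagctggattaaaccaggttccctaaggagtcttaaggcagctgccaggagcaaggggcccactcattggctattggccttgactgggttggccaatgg
Cfd, chr10:79890603-79890852, plus strand: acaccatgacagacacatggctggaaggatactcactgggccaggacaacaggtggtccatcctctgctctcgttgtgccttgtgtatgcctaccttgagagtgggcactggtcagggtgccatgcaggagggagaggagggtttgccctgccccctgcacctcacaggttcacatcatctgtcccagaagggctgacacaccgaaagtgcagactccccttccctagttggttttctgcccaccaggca
TTGCNNAA was found in 2 of the 7 promoters, against 9.56% of the 32851 promoters in the table. The other motifs were found in 0 of the 7, against 0.0335% for the direct repeat, 14.0% for AGGTCA and 12.4% for TATAAA. A match describes these letters in this window and is no evidence of binding.

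The adipokines Adipoq, Retn and Cfd were all highest in WT 3. Adipoq encodes adiponectin, a hormone made almost only by fat cells, and lies on chromosome 16 from 23146536 to 23158028 (GRCm38). It stood at 4.35, 4.85 and 7.84 FPKM in WT 1 to 3 and at 3.60, 3.29 and 5.28 FPKM in KO 1 to 3. The groups overlapped, since KO 3 lay above WT 1 and WT 2. The means were 5.68 ± 1.89 and 4.06 ± 1.07 FPKM (SD, n = 3 each), a log2 fold change of -0.39 on the log2(FPKM + 1) scale (95% interval -0.90 to 0.13), and it was -0.17 without WT 3. These levels rest on about 36 to 88 fragments per library. Adipoq was above 0 in all 6 libraries.

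Retn encodes resistin, which in mice is secreted by adipocytes, and lies on chromosome 8 from 3655770 to 3660110. Its values were 3.72, 5.96 and 10.4 FPKM in WT and 2.05, 4.70 and 3.39 FPKM in KO. KO 2 lay above WT 1, so these groups also overlapped (log2 fold change -0.76, 95% interval -1.55 to 0.02, and -0.43 without WT 3). Cfd encodes adipsin, the complement factor D protease that starts the alternative complement pathway, and lies on chromosome 10 from 79890853 to 79892655. It stood at 19.6, 35.3 and 91.8 FPKM in WT and at 19.5, 14.5 and 19.7 FPKM in KO. The KO libraries and WT 1 lay close together, WT 2 was higher, and WT 3 stood far above the rest. Cfd spanned the widest range of the 9 genes, 6.33-fold between its lowest and highest library. Its log2 fold change was -1.13 (95% interval -2.23 to -0.04), and -0.55 without WT 3.

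**Figure D1:**
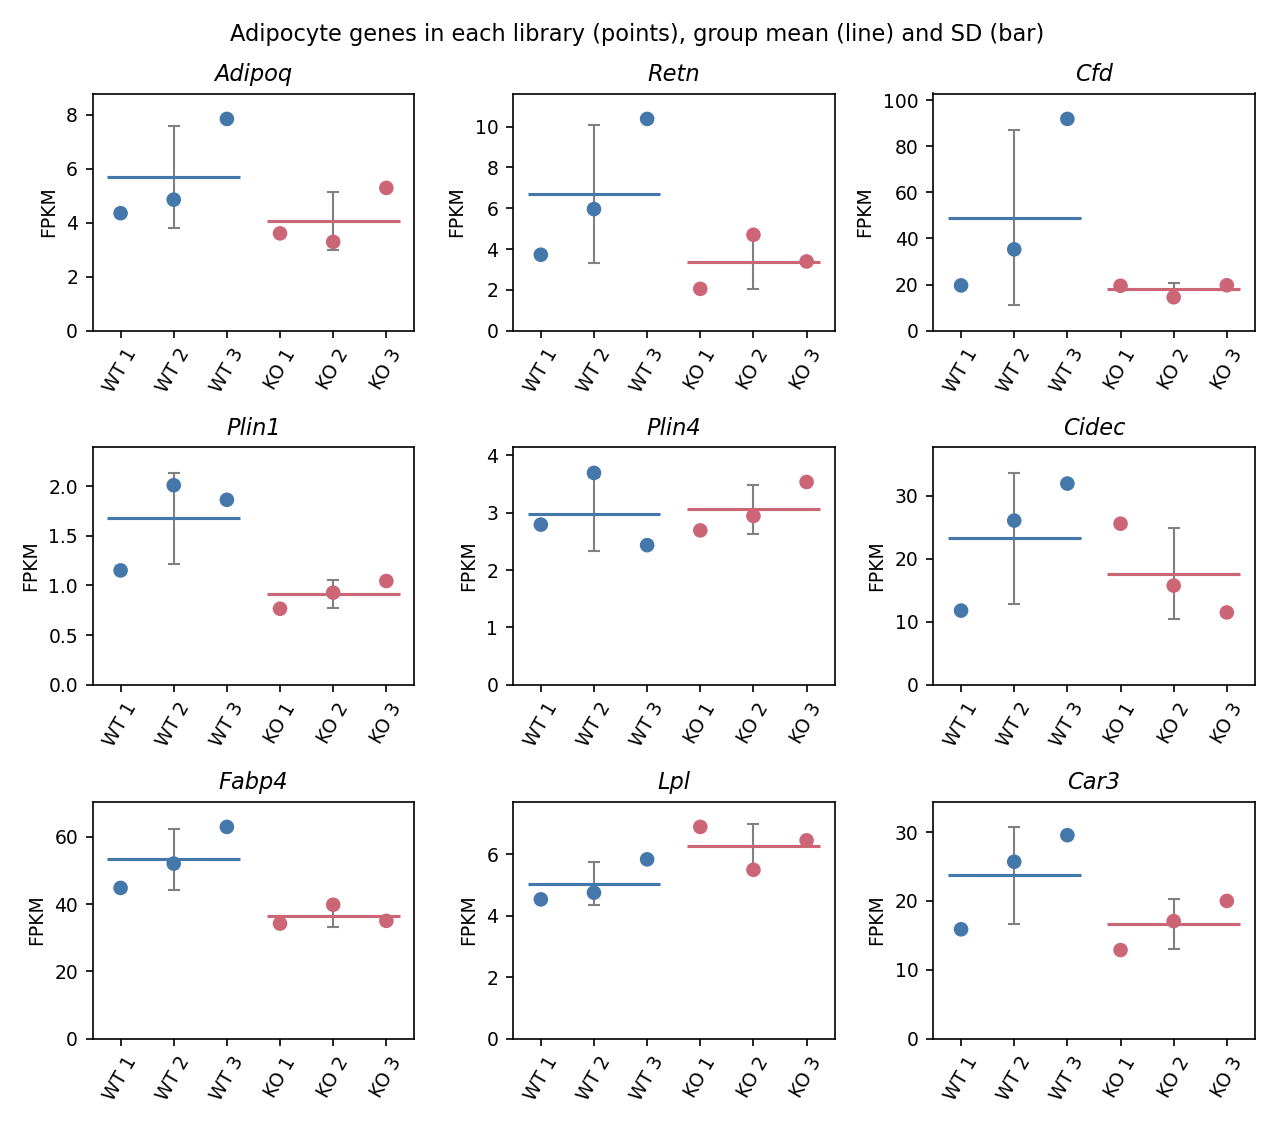
FPKM of each of the 9 genes (vertical axis, linear from 0) in each library (horizontal axis). Points are single mice, lines the group means and bars the SD of 3 mice. WT 3 is highest for 6 of the 9 genes, and Fabp4 and Plin1 are the genes whose KO points all lie below their WT points.

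Among the lipid droplet proteins, Plin1 was lower in every KO library than in any WT library, while Plin4 and Cidec were not. Plin1 encodes perilipin 1, which guards the adipocyte droplet against lipases, and lies on chromosome 7 from 79720218 to 79732903. It was low throughout, at 1.15, 2.01 and 1.86 FPKM in WT and 0.766, 0.927 and 1.04 FPKM in KO. This is about 20 to 52 fragments per library, so these values carry a large counting error. The means were 1.68 ± 0.459 and 0.913 ± 0.140 FPKM (SD, n = 3 each). The log2 fold change was -0.47 (95% interval -0.86 to -0.09) with the pseudocount of 1, -0.78 with a pseudocount of 0.1 and -0.17 with a pseudocount of 5. Plin4, a perilipin of adipocytes and muscle, lies on chromosome 17 from 56100591 to 56109803, where it overlaps Hdgfl2 on the other strand. It stood at 2.79, 3.69 and 2.43 FPKM in WT and at 2.69, 2.94 and 3.54 FPKM in KO. WT 3, which was highest for most of the genes, was the lowest library for Plin4 (log2 fold change 0.04, 95% interval -0.32 to 0.40, with the sign reversed under quantile normalization).

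Cidec encodes a protein that fuses small droplets into large ones, and lies on chromosome 6 from 113424634 to 113435760. Its values were 11.8, 26.1 and 32.0 FPKM in WT and 25.6, 15.7 and 11.5 FPKM in KO. The groups overlapped over most of their range (log2 fold change -0.35, 95% interval -1.24 to 0.55). The estimate was -0.07 without WT 3, -0.09 without KO 3, -0.21 without WT 2, -0.64 without KO 1 and -0.75 without WT 1. Cidec ordered the libraries differently from Adipoq, with KO 1 above KO 2 and WT 1, and KO 3 last. The order WT 3, WT 2, KO 1, KO 2, WT 1, KO 3 was also that of Aqp7, a glycerol channel, at 6.64, 5.62, 4.88, 3.93, 2.31 and 1.84 FPKM, a comparison made after the values were seen. KO 3, WT 1 and KO 2 were also the 3 lowest libraries for Apoa4, an apolipoprotein of enterocytes (362, 566 and 906 FPKM, against 1489 to 2135 FPKM in the others). Fabp1 and Fabp2, also genes of enterocytes, ordered the libraries differently. Fabp1 was lowest in KO 1 (718 FPKM), and Fabp2 in KO 2 (1241 FPKM). The part of enterocytes in the Cidec values was not tested.

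Fabp4, the fatty acid binding protein of adipocytes, which capillary endothelium and macrophages also express, lies on chromosome 3 from 10204088 to 10208576. It stood at 44.8, 52.0 and 62.9 FPKM in WT and at 34.2, 39.8 and 35.0 FPKM in KO. All KO libraries lay below all WT libraries, which is the difference it was chosen for and so is given without a test. The means were 53.2 ± 9.12 and 36.3 ± 3.03 FPKM (SD, n = 3 each), a ratio of 0.682 and a log2 fold change of -0.53 (SE 0.14). Leaving out any 1 library gave -0.64 to -0.40. Summed markers of the other cell types that express it did not follow the same order. The summed FPKM of 13 blood endothelium genes was 136 to 153 in WT and 105 to 184 in KO, highest in KO 2. That of 11 macrophage genes was 175 to 209 in WT and 180 to 227 in KO. Gene by gene, 7 endothelial estimates were below 0 and 6 above (median -0.04). For macrophages 1 was below 0 and 10 above (median 0.05). The part of these cells in the Fabp4 values was not tested.

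The estimates of Lpl and Car3 had opposite signs, but both 95% intervals included 0 and the groups overlapped for both. Lpl encodes lipoprotein lipase, which fat, muscle and macrophages make, and lies on chromosome 8 from 68880491 to 68907448. It stood at 4.53, 4.75 and 5.83 FPKM in WT and at 6.88, 5.49 and 6.44 FPKM in KO. Only KO 2 fell below a WT library, and the estimate was above 0 (log2 fold change 0.27, 95% interval -0.03 to 0.57). Car3, a carbonic anhydrase abundant in adipocytes and slow muscle, lies on chromosome 3 from 14863512 to 14872523. Its values were 15.9, 25.7 and 29.6 FPKM in WT and 12.9, 17.1 and 20.0 FPKM in KO, with KO 2 and KO 3 above WT 1 (log2 fold change -0.46, 95% interval -1.02 to 0.09; -0.29 without WT 3, -0.30 without KO 1 and -0.72 without WT 1). Skeletal muscle genes were low beside it, with Ckm at 3.13 to 7.55 FPKM and Mylpf at 1.20 to 2.83 FPKM, and the fast myosin gene Myh4 was listed at 0 in all 6 libraries. No slow myosin gene was in the list. The summed FPKM of the 7 skeletal muscle genes was 8.86 to 9.81 in WT and 6.68 to 7.45 in KO, so all KO libraries lay lower, as for Fabp4 and Plin1. The part of muscle in the Car3 values was not tested.

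Over the whole set, 7 of the 9 estimates were below 0 (median -0.46), where 41.6% of all 12695 genes tested were below 0 (median 0.03). In 2 of the 9, Fabp4 and Plin1, all KO libraries lay below all WT libraries, against 2.6% of genes tested, and in 0 of the 9 were all KO libraries higher, against 5.77%. Since these genes were chosen with results of this comparison known, the counts describe them and support nothing further. With limma, 0 of 12695 genes (0%) were called at a threshold of 0.05 after adjustment. Before adjustment, 459 genes lay under 0.05, of which 136 were lower and 323 higher in KO. The adjusted p of each of the 8 genes other than Fabp4 was 0.998. A pseudocount of 5 also brought other scarce genes closer to 0, to -0.23 for Adipoq, -0.45 for Retn, 0.17 for Lpl and 0.02 for Plin4. In whole tissue, fewer adipocytes and less RNA per adipocyte cannot be told apart.

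The contrast rested on WT 2 and WT 3 more than on WT 1. The mean of Adipoq, Plin1, Plin4, Cfd, Retn and Cidec, each centred on its mean log2(FPKM + 1) over the 6 libraries, was -0.25 in WT 1, 0.31 in WT 2 and 0.71 in WT 3. In KO 1, KO 2 and KO 3 it was -0.28, -0.28 and -0.21. WT 1 lay inside the narrow range of the KO libraries, and the other WT libraries lay above it. Of the 9 genes, 6 were highest in WT 3, 2 in WT 2 and 1, Lpl, in KO 1. WT 3 was also the only WT library in which Y-linked transcripts were at trace level. The difference of mean log2(FPKM + 1), KO minus WT, was therefore also taken first among WT 1, WT 2 and KO 1, which expressed them, and then among WT 3, KO 2 and KO 3. In this order it was -0.28 and -0.77 for Adipoq, -0.91 and -1.19 for Retn and -0.42 and -2.37 for Cfd. Among the droplet proteins it was -0.53 in each for Plin1, -0.19 and 0.30 for Plin4 and 0.52 and -1.19 for Cidec, so Plin4 and Cidec differed in sign between the comparisons. It was 0.48 and 0.03 for Lpl and -0.61 and -0.65 for Car3. For Fabp4, which was selected on this difference over the same libraries, it was -0.49 and -0.74. Each comparison holds 1 library on one side, so none was tested.

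The measured proportions between the genes varied between libraries. Adipoq, the divisor, rests on about 36 to 88 fragments per library, so its counting error is shared by every ratio below. Relative to Adipoq in the same library, Car3 stayed within 3.58 and 5.30, a range of 1.48-fold, and Fabp4 within 6.62 and 12.1, a range of 1.83-fold. The ratio of Plin1 to Adipoq lay between 0.198 and 0.415, with about 20 to 52 fragments of Plin1 per library. How much of this spread is counting error was not tested. Cfd moved most among the adipokines, from 4.52 to 11.7 in WT and from 3.73 to 5.41 in KO. Cidec ranged from 2.17 in KO 3 to 7.10 in KO 1. Lpl was 0.744 to 1.04 times Adipoq in WT and 1.22 to 1.91 times in KO, so that all KO ratios lay above all WT ratios. Plin4 was 0.311 times Adipoq in WT 3 and 0.642 to 0.896 times in the other libraries.

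**Figure D2:**
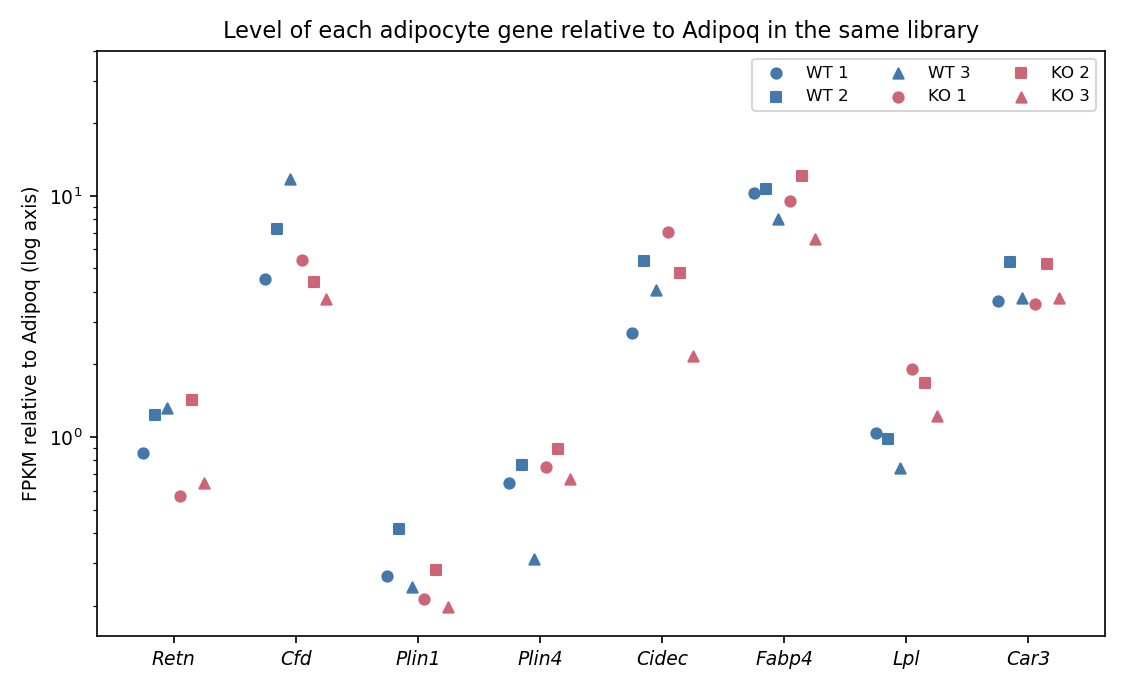
FPKM of each gene divided by that of Adipoq in the same library (vertical axis, log scale) for the other 8 genes (horizontal axis), WT in blue and KO in red. Points for Car3 lie within a 1.48-fold range, and those for Cidec spread 3.27-fold.

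Other genes of the adipocyte programme had estimates on both sides of 0. All 25 listed genes were found, of which 21 had a mean of at least 1 FPKM. Of these, 12 estimates were below 0 and 9 above (median -0.05), and 0 passed the adjusted test. Several of them are also known in intestinal epithelium, among them the hormone-sensitive lipase gene Lipe (29.2, 36.4 and 35.0 FPKM in WT; 33.2, 25.7 and 24.7 FPKM in KO), the triglyceride lipase gene Pnpla2 (log2 fold change -0.12) and Gpd1, which makes glycerol phosphate (0.05). Scd1, a fatty acid desaturase, was higher in all KO libraries, at 11.5, 12.9 and 16.7 FPKM in WT and 18.8, 32.0 and 25.9 FPKM in KO (log2 fold change 0.84, limma adjusted p = 0.998). The gluconeogenic enzyme gene Pck1 reached 234 FPKM in KO 1 against 39.6 to 91.1 FPKM elsewhere. Scarcer transcripts of this list varied between libraries. Hp, which encodes haptoglobin, stood at 0.751, 2.06 and 3.76 FPKM in WT and 0.512, 0.370 and 1.27 FPKM in KO, and Adig, which encodes adipogenin, at 0.220, 1.59 and 3.46 FPKM and 0.453, 1.22 and 3.02 FPKM. Group means were higher in KO for Acvr1c (3.57 in WT, 3.94 FPKM in KO), Adrb3 (0.582, 0.624 FPKM) and Trarg1 (0.808, 1.01 FPKM). The mean of Mrap was lower in KO (0.464 in WT, 0.304 FPKM in KO). The leptin gene Lep was at 0.110 FPKM or less in every library. Pparg, the master regulator of adipocytes, stood at 5.77, 5.81 and 4.10 FPKM in WT and 4.25, 4.33 and 4.12 FPKM in KO. Of the 7 brown fat genes listed, Ucp1 was at 0.0775 FPKM or less and Elovl3 at 0.0614 FPKM or less. Cidea, Cox8b and Dio2 stood at 0.115 to 0.742, 0.565 to 1.24 and 0.121 to 0.341 FPKM. Cox7a1 (127 to 167 FPKM) and Ppargc1a (13.4 to 16.9 FPKM) were abundant, so the list was not uniformly low.

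**Figure D3:**
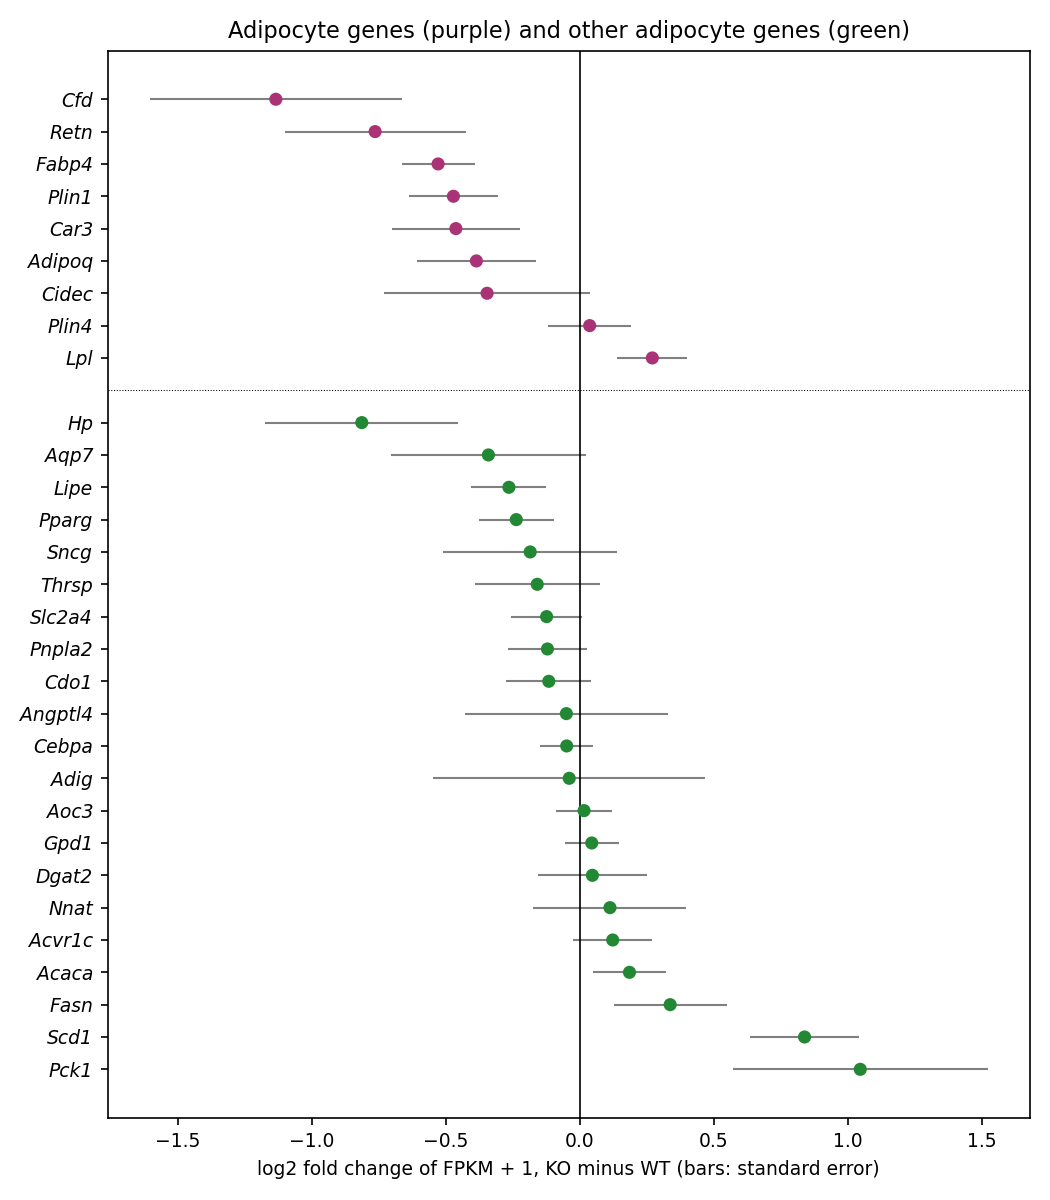
Log2 fold change of FPKM + 1, KO minus WT (horizontal axis), for the 9 genes (purple) and the 21 other adipocyte genes tested (green), with bars for the standard error. Of the purple points 7 lie below 0, while the green points fall on both sides of 0 with a median of -0.05.

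Partners of the 9 genes in lipid handling also had medians close to 0. Of 16 lipid droplet and lipolysis genes tested, 12 estimates were below 0 and 4 above, with a median of -0.05, and 0 passed. Plin2 and Plin3, the perilipins found in most cells, were far more abundant than Plin1, at 30.5 to 44.2 and 90.5 to 122 FPKM. G0s2, an inhibitor of triglyceride lipase, was lower in all KO libraries (3.11, 3.05 and 3.62 FPKM against 2.74, 2.63 and 1.37 FPKM, log2 fold change -0.42, limma adjusted p = 0.998). Of 10 genes of the lipoprotein lipase pathway tested, 6 were below 0 and 4 above (median -0.07), and 0 passed. Gpihbp1, the capillary anchor of the lipase, stood at 1.75, 1.97 and 2.20 FPKM in WT and 2.62, 1.60 and 1.29 FPKM in KO, and its inhibitor Angptl4 at 7.92, 21.7 and 18.4 FPKM and 22.2, 11.4 and 11.3 FPKM. Lmf1, which the lipase needs to mature, was higher in all KO libraries (7.08 to 7.68 FPKM against 7.71 to 8.43 FPKM, log2 fold change 0.13). Adipogenic transcription factors had a median of 0.01 over 9 genes tested, with 0 passing. Ebf1, which also acts in B cells, was highest in KO 1 and KO 2 (4.16 and 5.45 FPKM, against 0.556 to 1.39 FPKM elsewhere).

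Markers of the other tissues that a piece of bowel with mesentery could hold did not move with the adipocyte genes in a single way. Mesothelium, the surface layer of bowel and mesentery, had 7 of its 8 matched markers below a mean of 1 FPKM. The summed level of the 8 was 4.21 to 5.52 FPKM in WT and 3.24 to 5.55 FPKM in KO. Most of this sum came from Upk1b (2.14 to 3.61 FPKM). Weighting the markers equally, their mean centred level was highest in WT 3 (0.14), as for the adipocyte genes, with KO 1 next (0.07). Fibroblast and stroma genes summed to 455 to 489 FPKM in WT and 442 to 517 FPKM in KO, and their mean centred level was lowest in WT 3 (-0.21). The largest term of that sum was Dpp4, at 133 to 234 FPKM (log2 fold change -0.25). It was highest in WT 3 and next in KO 1 (189 FPKM), the libraries with the highest enterocyte sums. The part of epithelium in the Dpp4 values was not tested. Of the 10 stroma genes tested, 3 estimates were below 0 and 7 above (median 0.09). B cell genes, which mark lymph nodes and Peyer's patches, were high in KO 1 and KO 2 (summed 73.7 and 89.6 FPKM) and at 7.42 to 16.1 FPKM in the other libraries. Enterocyte genes, like the adipocyte genes, had their highest mean in WT 3 (0.66), but KO 1 came next (0.20). This list includes the distal ileum genes Fabp6 and Slc10a2, which were also highest in WT 3 and raise its mean there. The enterocyte sum was 7930 to 14146 FPKM in WT and 6417 to 13943 FPKM in KO, and its highest values, in WT 3 and KO 1, were close. All 8 enterocyte genes tested had estimates below 0 (median -0.25), and 0 passed. That median lay between -0.38 and 0.02 when 1 library was left out. Of 8 acinar genes of the pancreas, Cela2a, Cpa1, Prss2, Pnlip and Cel were listed at 0 in all libraries and Ctrb1 stood at 0.161 FPKM or less. The elastase gene Cela1 stood at 2.17 to 3.90 FPKM, and the lipase-related gene Pnliprp1 at 1.35, 1.04 and 1.67 FPKM in WT and 0.896, 0.822 and 0.867 FPKM in KO. The part of these tissues in the values of the 9 genes was not tested.

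**Figure D4:**
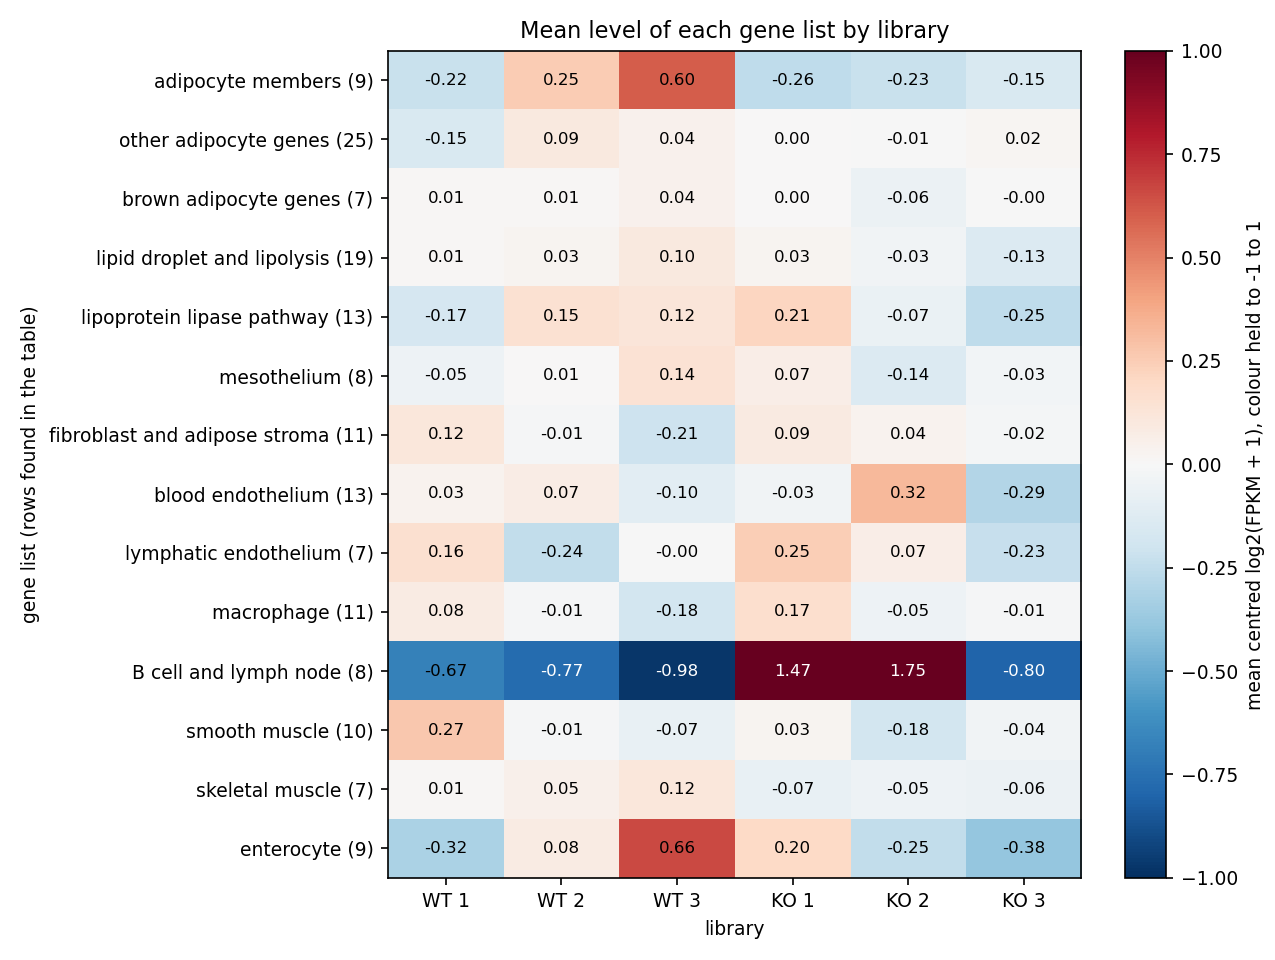
Mean of log2(FPKM + 1), centred per gene on the 6 libraries, for each gene list (rows) in each library (columns), with the value printed in each cell. The adipocyte genes are at 0.60 in WT 3 and between -0.26 and -0.15 in WT 1 and the KO libraries, while B cell genes are high in KO 1 and KO 2.

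Other genes were ranked by how closely their levels followed the mean of the 6 adipocyte genes named above. All 9 genes were left out of this ranking, including Fabp4, Lpl and Car3, which are not part of that mean and had a Pearson r with it of 0.905, -0.15 and 0.901. Predicted and clone-named loci among the 12686 others were left out as well. Of the genes that remained, the highest Pearson r over the 6 libraries belonged to Ptp4a1 (0.989), Ptk6 (0.987), Trim40 (0.986), Zfp747 (0.978), Syde1 (0.975), Arhgap12 (0.973), Vcpip1 (0.970), Tifa (0.967), Frk (0.966) and Fgf11 (0.964). Ptk6 and Frk encode related tyrosine kinases of epithelia. Ptk6 stood at 14.7, 26.5 and 33.7 FPKM in WT and 16.0, 13.9 and 15.2 FPKM in KO, and Tifa, an adaptor of innate immune signalling, at 27.6, 80.3 and 93.7 FPKM and 23.2, 26.8 and 25.5 FPKM. Both were high in WT 2 and WT 3 and level in the other 4 libraries. The ranking is a description of these libraries, with no test.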

How the data were processed

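Whole-tissue RNA from 6 mice was sequenced as directional libraries, per the labels' protocols. The authors deposited FPKM values, 1 column per library. Cufflinks, Cuffnorm and STAR, with FastQC, Trimmomatic, bedtools and SAMtools, are listed beside GRCm38 and mm10 in the submitters' processing notes. For versions, scaling between libraries and use of strand, the sources used here give nothing. Columns were matched to samples by genotype and number.

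FPKM values are not counts, so the 12695 genes averaging 1 FPKM or more were tested on log2(FPKM + 1), which understates changes of low genes, with limma 3.58.1 (intensity trend, two-sided, Benjamini-Hochberg, threshold 0.05; R 4.3.3), tested on simulated data. Fragments were estimated from the value of 1 fragment in single-transcript genes (GENCODE M21) and each gene's principal transcript. The 9 genes and the 21 lists were chosen with earlier results of these data known. Of 212 list entries 210 matched, 4 by an older symbol. Named were the 9 genes, listed lipid and family genes, up to 3 of the most abundant markers of each other list and the 10 genes most like the adipocyte profile (predicted and clone-named loci left out). Markers named outside this rule (Myh4, Apoa4, Slc10a2, Ddx3y and acinar genes) were chosen after their values were seen.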

Additional observations from a re-analysis of the deposited data

How the results depend on the processing

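Each of the 9 genes was refitted under 16 alternatives, of which the sex term was chosen after seeing the data. Fabp4, selected on its difference, is left out of the next counts. Of the 125 values obtained for the other 8 genes, 122 kept their direction and 0 passed the threshold (lowest limma adjusted p = 0.536). A filter of 5 FPKM left Adipoq, Plin1 and Plin4 without a value. Plin4 turned to -0.0498 under quantile normalization, -0.0621 without WT 3 and -0.0463 without KO 3, and lay between -0.0621 and 0.163 when 1 library was left out. The number of the 9 genes below 0 stayed between 7 and 8. Over all genes, the count past the threshold rose from 0 to 2 with a pseudocount of 0.1, to 2 with a pseudocount of 5 and to 2 after rescaling to an equal sum. It lay between 0 and 46 when 1 library was left out, with 46 without KO 3, 2 without WT 1 or WT 3 and 1 without KO 1. Rescaling to an equal sum moved the median of all genes by 0.10 and that of the other adipocyte genes to 0.0544. With the replicate number as a block the count was 1. Libraries with the same number did not deviate together (r of -0.13, 0.03 and -0.11 for numbers 1, 2 and 3). Those with different numbers gave r of -0.02 to 0.14. The numbers thus gave no sign of pairing, but values this small cannot show whether the mice were paired. Low depth limits Plin1, Retn and Adipoq most.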

Other observations

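Relatives of the 9 genes differed widely in level. In the fatty acid binding protein family, the enterocyte genes Fabp2 (1241 to 2947 FPKM) and Fabp1 (718 to 1106 FPKM) exceeded Fabp4, while Fabp5, the other member made by adipocytes and macrophages, stood at 4.72 to 8.31 FPKM with a log2 fold change of 0.15 where that of Fabp4 was -0.53. Of the resistin family, Retnlg, a gene of neutrophils, stood at 5.44 to 9.77 FPKM, and Retnlb, a goblet cell gene, at 0.593 FPKM or less. Retnla, which adipose tissue and macrophages express, was highest in WT 3 (3.24 FPKM) and KO 3 (2.45 FPKM), the libraries in which Adipoq was also highest. Among carbonic anhydrases, Car4 (67.8 to 121 FPKM) and Car13 (32.6 to 46.5 FPKM) were above Car3, and Car12 was higher in all KO libraries (3.22 to 4.03 FPKM in WT and 5.31 to 5.70 FPKM in KO, log2 fold change 0.45, limma adjusted p = 0.998). In the alternative complement pathway, which factor D serves, C3 stood at 10.6, 12.8 and 20.7 FPKM in WT and at 31.7, 23.2 and 16.5 FPKM in KO (log2 fold change 0.67), opposite in sign to Cfd, and Cfb at 59.3 to 74.7 FPKM in WT and 45.3 to 69.4 FPKM in KO. The 7 genes of this list had a median log2 fold change of 0.04, with 0 passing the adjusted test.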
